A study of Arabidopsis thaliana with 27 samples.

Results

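The data described here are the 4 arrays of a time course after spraying Arabidopsis thaliana with 10 mM BABA (beta-aminobutyric acid), harvested 2, 5, 10 and 24 h later. They were chosen by their titles and are 4 of the 27 arrays of a series on plant activators. All plants were soil-grown, 28 days old, of ecotype Columbia and kept in 12 h light and 12 h dark. The labels call the tissue leaves in one place and all of the plant except its root in another. The other 23 arrays, used as the comparison, cover the same 4 times after 5 mM SA (salicylic acid), 1 mM INA and 0.5 mM BTH (synthetic activators of the salicylic acid pathway), ET (1 mM ethephon, a source of ethylene) and MeJA (0.1 mM methyl jasmonate). On each spotted array of cDNA probes, Cy5-labelled RNA of treated plants competed with Cy3-labelled RNA of plants left untreated, and the dyes were not swapped.

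BABA is a non-protein amino acid that primes plants for faster defence against pathogens, and against drought and salt. In Arabidopsis it binds IBI1, an aspartyl-tRNA synthetase. The priming is known to act partly through salicylic acid and partly through callose deposition and abscisic acid, and high doses slow growth.

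There was 1 array for each BABA time, and the labels say that replicate experiments were combined into a pool ahead of extraction, so a single time has no replicate. The values are log ratios of treated over untreated plants, centred on each array's median and averaged over the spots of a gene. The base of the logarithm is not stated and is read here as 2, so that 1 stands for a 2-fold difference. No mock spray is described, sprayed plants were kept at high humidity, and the labels do not say whether the untreated plants were harvested at the same hours. A log ratio gives no level, so the identity of the tissue could not be checked against its marker genes. In bulk RNA, fewer cells of a type and less RNA per cell cannot be told apart.

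Of the 416 named genes on the array, BABA gave values for 225 (2 h), 223 (5 h), 228 (10 h) and 183 (24 h). The other 23 arrays had between 165 and 394, with a median of 341. All 4 BABA times were measured for 161 genes, and 146 genes had a value at none. The deposited values spread more widely on the BABA arrays (SD 1.28, 1.79, 1.96 and 1.51 at 2, 5, 10 and 24 h, against 0.891 to 1.45 on the other arrays). On the 10 h array 20 spots were deposited as exactly 0, against 0 to 6 spots on the 23 arrays of other agents. Of 790 pairs of spots of 1 gene on the BABA arrays, 7 differed by more than 2, against 1 of 6752 pairs on the other arrays. Of the named genes described below this touches AT3G21670, AT3G28220 and AT1G26380, each with 1 of 2 spots at 0 at 10 h, AT1G26390, with both spots at 0 at 10 h, AT1G74360, with discordant spots at 10 h, and COR15A, with discordant spots at 24 h. TUA5, a tubulin gene with 54 spots, had centred log ratios of 0.54, -0.29, -0.31 and -0.99 in time order.

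The share of genes past a centred log ratio of 1 was largest at 5 and 10 h. At 2 h, 55 genes (24.4%) lay at 1 or above and 36 (16%) at -1 or below. At 5 h these were 79 (35.4%) and 45 (20.2%), at 10 h 74 (32.5%) and 52 (22.8%), and at 24 h 44 (24%) and 38 (20.8%). These are counts by size, with no test. Among the 161 genes measured at every time the counts were 35 and 26 at 2 h, 44 and 36 at 5 h, 38 and 46 at 10 h, and 33 and 37 at 24 h. The totals were again higher at 5 and 10 h than at 2 and 24 h. The spread of all spots was also widest on those arrays. With every array scaled to 1 spread, 95 of 225, 77 of 223, 78 of 228 and 68 of 183 genes were past 1 at 2, 5, 10 and 24 h. The share was then largest at 2 h, and smaller at 5 and 10 h than at 24 h.

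**Figure D1:**
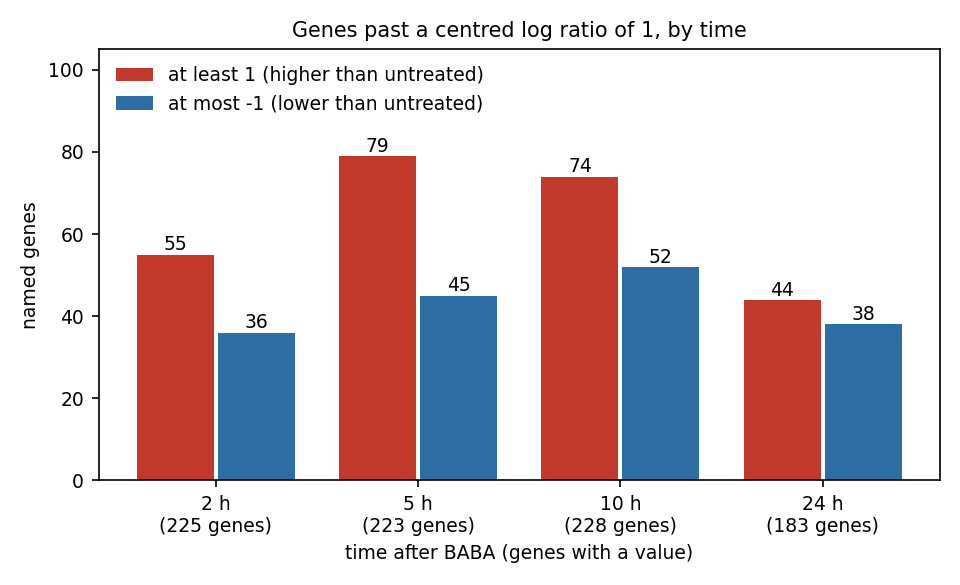
Number of named genes with a centred log ratio (read as log2) of at least 1 or at most -1 at each time after BABA. The number of genes with a value is given under each time. The bars at 5 and 10 h are the tallest, with 79 and 74 genes at 1 or above.

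The balance of higher and lower genes depended on the zero point. Deposited values, without centring, gave 32 higher and 97 lower at 2 h, 95 and 26 at 5 h, 130 and 25 at 10 h, and 84 and 11 at 24 h. Centring on TUA5 gave 37 and 73, 93 and 33, 89 and 40, and 96 and 8. It shifted all genes by -0.54, 0.29, 0.31 and 0.99 in time order. Quantile normalization gave 51 and 39, 39 and 36, 37 and 39, and 33 and 40. What follows is therefore relative to the median spot of each array.

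A group of 16 genes lay at 1 or above at all 4 times after BABA. The highest mean over the 4 times among the tested genes was that of AT2G18690, a membrane protein of unknown function, with 4.64, 4.92, 4.77 and 4.64 in time order. Its course was flat and already at its full height at 2 h. AT5G18470, a curculin-like mannose-binding lectin, had 3.03, 5.06, 6.06 and 3.64, a peak at 10 h. It was measured in too few conditions of the other agents to be tested. AT2G39210, a nodulin-like major facilitator, had 2.63, 4.48, 3.88 and 3.81. The class III peroxidase AT5G64120 (PRX71, a cell wall enzyme) had 2.78, 3.84, 4.18 and 3.71. These courses started lower at 2 h and stayed high at 24 h.

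AT5G35735, which has a cytochrome b561 domain and is annotated as auxin-responsive, had 2.99, 4.04, 3.79 and 2.47. AT4G20840 (OGOX2), an oxidase that inactivates the cell wall fragments oligogalacturonides, had 3.22, 3.44, 2.94 and 2.25, and its neighbour AT4G20830 (OGOX1) had 1.45, 3.46, 2.91 and 2.13. Cross-hybridisation between close homologs such as these was not assessed. YLS5, a DJ-1 family protein, had 1.04, 3.68, 3.55 and 3.07. YLS5 and AT4G20830 were clearly higher at 5 h than at 2 h, and all 4 genes had their highest value at 5 h.

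Calcium-binding proteins were also in this group. AT4G27280, an EF-hand protein, had its highest value at 2 h (3.85, 2.40, 1.23 and 1.30). AT2G41410, the calmodulin-like CML35, had 2.27, 1.496, 1.58 and 2.69, with the lower values in the middle of the course. It did not pass in the comparison with the mean of the other agents given below (0.34, limma adjusted p = 0.211). The other genes held at 1 or above were AT4G38550 (PEARLI 4, phospholipase-like), AT5G18490, AT4G34180 (cyclase family), FDH (formate dehydrogenase), UGT72E1 (a glycosyltransferase of lignin precursors) and AT1G03220 (aspartyl protease family). AT4G38550 ran at 2.67, 3.37, 3.05 and 1.47, and the remaining 5 stayed between 1.00 and 2.61.

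A group of 10 genes lay at -1 or below at all 4 times. AT3G21670 (NPF6.4, a nitrate transporter of the NRT1/PTR family) had -2.95, -7.42, -4.89 and -1.11, the lowest value of any named gene with all 4 times. Of its 2 spots at 10 h, 1 was deposited as exactly 0, and without that spot the 10 h value is -8.83. AT3G28220, a TRAF-like protein, had -1.53, -5.06, -4.00 and -2.27, and -7.06 at 10 h without its spot at 0. Both genes were lowest at 5 or 10 h and partly back at 24 h.

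AT1G29660, a GDSL lipase, had the same form with -2.34, -4.27, -4.24 and -1.51. AT1G52000, a jacalin-type lectin, had -1.13, -2.93, -2.73 and -1.45, and the remorin AT2G45820, a plasma membrane protein, had -1.36, -2.40, -2.88 and -1.76. FUG1, a chloroplast translation initiation factor, was nearly constant at -1.92, -1.91, -1.96 and -2.40. AT1G61180, a resistance-type protein with an NB-ARC domain, had -1.93, -1.25, -1.07 and -3.19. Like FUG1 it was lowest at 24 h. In the comparison with the mean of the other agents given below, neither passed. The differences were -0.15 for FUG1 and -0.56 for AT1G61180 (limma adjusted p = 0.704 and 0.108).

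AT1G73390 (BRO1 domain) had -2.08, -1.57, -2.68 and -1.77, ZW9 (TRAF-like) had -1.29, -2.02, -2.17 and -1.55, and AT4G14360 (methyltransferase family) had -1.17, -1.85, -1.83 and -1.51. Membership of the low group depended on the zero point. With deposited values 1 of these 10 genes was still at -1 or below at all times and with TUA5 centring 2 of 10, while 11 and 12 of the 16 high genes were still at 1 or above. Scaling to 1 spread kept 8 of 10 low and 13 of 16 high genes. Against the mean of the other agents, 12 of 15 tested high genes were higher and 8 of 10 low genes lower. The shares over all tested genes were 23.9% higher and 22.2% lower. Both groups were chosen by their BABA values, so these counts are description only.

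**Figure D2:**
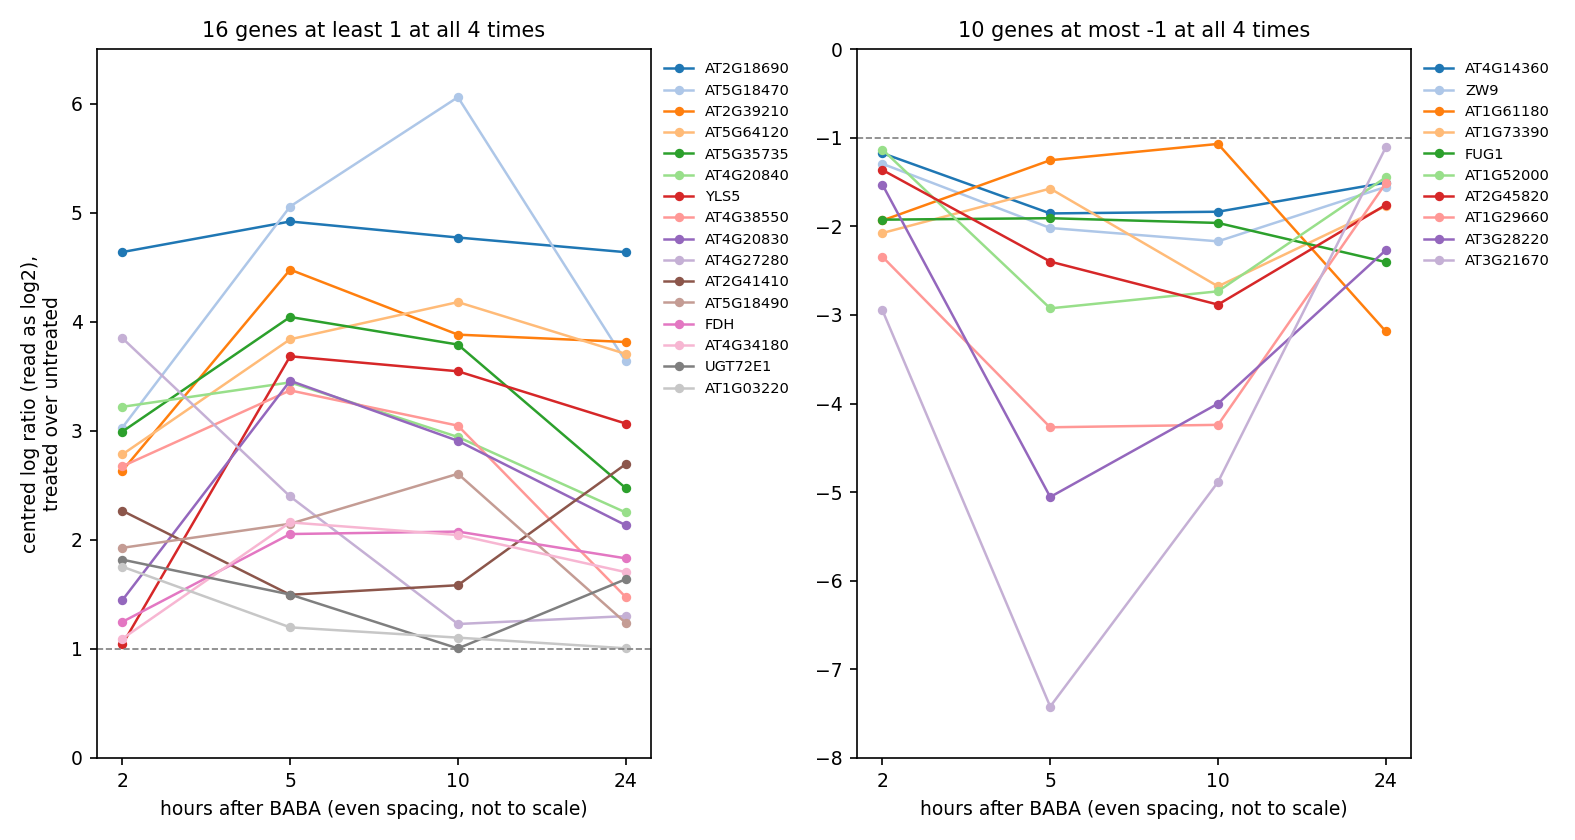
Centred log ratio (read as log2) at each time after BABA for the 16 genes at 1 or above (left) and the 10 genes at -1 or below (right) at all 4 times, 1 line a gene and 1 array a time, with the scales of the panels differing. AT2G18690 stays between 4.64 and 4.92, AT4G27280 declines after 2 h, and AT3G21670 reaches -7.42 at 5 h. The 10 h points of AT3G21670 and AT3G28220 average 1 spot deposited as 0.

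Tests used the 180 genes that had a value in 20 or more of the 24 conditions and, for every agent, in 3 or more times. Of these, 159 had all 4 BABA times and 21 had 3. All tests but that of a course of any shape, given below, are limma's moderated test on the whole table, two-sided. The any-shape test is an F test with limma's moderated variances. Adjustment is by Benjamini-Hochberg throughout. The spread comes from all agents, since each BABA time has 1 array. In the any-shape test and the 24 h contrast it comes from the other agents alone. In an additive model of agent and time, the BABA mean over the 4 times differed from 0 for 120 of 180 genes (66.7%), 61 higher and 59 lower than untreated. The split was 69 higher and 36 lower with deposited values, 72 and 43 with TUA5 centring, and 49 and 50 after scaling to 1 spread. An effect of the dyes or of spraying does not cancel in this test against 0, and neither was tested.

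The first question on the course was whether the late times (10 and 24 h) differed from the early ones (2 and 5 h). Of 180 genes, 1 passed (0.556%). AT5G62350, of the pectin methylesterase inhibitor family, had late values of -0.78 (10 h) and -1.12 (24 h), against early values of 1.55 (2 h) and 0.82 (5 h). Both late values lay below both early values, a difference of -2.14 ± 0.44 (SE, limma adjusted p = 0.0259). It did not pass with deposited values, with TUA5 centring (where another gene passed), after scaling or quantile normalization, or from the BABA arrays alone. At an unadjusted p under 0.05 there were 23 genes by limma, 8 higher and 15 lower late. The median half-width of the 95% interval was 1.09, so changes of about 2-fold between the phases were mostly not detectable.

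Several genes with large late differences missed the threshold. COR15A, a cold-induced chloroplast protein, had -0.18, -3.00, -5.85 and -4.93 (late minus early -3.80, limma adjusted p = 0.0802). The 2 spots of COR15A at 24 h read -3.85 and -6.00. AT1G66100, a thionin (a small antimicrobial protein), had -0.86, -1.41, -6.36 and -2.90 (late minus early -3.50, limma adjusted p = 0.0698). Both had their value nearest 0 at 2 h and their lowest at 10 h.

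A straight slope over log2 hours, listed among the alternatives, passed for 13 genes, 9 falling and 4 rising with time. Set against the slope of the other 5 agents, 0 of 180 genes passed by limma, with 18 at an unadjusted p under 0.05. The slopes were fitted with median centring alone. TUA5 centring shifts the times by -0.54, 0.29, 0.31 and 0.99, which would move every slope upward. COR15A fell by 1.44 ± 0.37 per doubling of time (SE, limma adjusted p = 0.0235), and COR47, a cold-induced dehydrin, fell by 0.67 ± 0.15 (0.557, -0.85, -1.57 and -1.84). AT4G27280 fell by 0.75 ± 0.14. The 4 that rose were ECS1, a cell wall protein (-0.78, 0.22, 1.25 and 1.59), PPDK, pyruvate orthophosphate dikinase (-0.87, 0.02, 0.93 and 1.21), AT3G51000, a hydrolase (-1.33, -0.40, -0.06 and 0.71), and AT2G25510 (-0.88, 0.76, 1.81 and 1.98). These 4 were below 0 at 2 h and above 0 at 24 h. They were named by the slope test and not by the rule for named genes.

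Whether BABA's late minus early difference was unlike that of the other 5 agents was tested in the same model. None of 180 genes passed (0%) by limma, with 7 at an unadjusted p under 0.05. The median half-width of the 95% interval was 1.19. A test of a course of any shape, added after seeing the data, compared the 4 BABA times with the common course of the other agents. It passed for 2 of 159 genes (1.26%), with 19 at an unadjusted p under 0.05.

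These 2 genes were AT3G21670 and AT1G66100. For AT3G21670, BABA gave -2.95, -7.42, -4.89 and -1.11, against means of -0.58, -1.34, -2.61 and 0.59 over the other agents (F test on limma variances, adjusted p = 0.000316). The 10 h value is -8.83 without the spot at 0, and the 10 h mean of the other agents has no MeJA value. For AT1G66100, BABA gave -0.86, -1.41, -6.36 and -2.90, against 0.42, -0.38, -1.62 and -0.39 over the other agents (F test on limma variances, adjusted p = 0.0246). Here the gap was widest at 10 h, where each other agent also had its lowest AT1G66100 value (-3.46 under ET and -3.02 under INA). Neither passed after scaling the arrays to 1 spread or quantile normalization, AT1G66100 did not pass with TUA5 centring (F test, adjusted p = 0.248), and the spread of single BABA arrays was not measured.

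At 24 h, on median-centred values, some genes were nearer the untreated plants than before, and others had moved past or away from them. In a contrast added after seeing the data, the 24 h value was set against the mean of 2, 5 and 10 h, with the spread taken from the other agents. Of 159 genes, 20 passed (12.6%), 8 higher (5.03%) and 12 lower (7.55%) at 24 h, and 52 had an unadjusted p under 0.05. The test assumes that the single 24 h array varies like the other arrays.

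The 8 genes that were higher at 24 h were led by AT3G21670, at -1.11 against -2.95, -7.42 and -4.89 before (3.98 ± 0.44, SE, limma adjusted p = 3.58e-06). AT1G64500, a glutaredoxin family protein, stood at 0.05 at 24 h, against -2.03, -3.99 and -4.25 before (3.47 ± 0.58, limma adjusted p = 0.000411). AT2G26690 (NPF6.2, of the same nitrate transporter family) stood at -0.26, against -1.77, -2.42 and -3.18 (2.20 ± 0.35, limma adjusted p = 0.000316). These 3 passed in all 7 scalings and centrings tried. The others were GT72B1, a glycosyltransferase (0.39 at 24 h, -2.14, -1.93 and -1.75 before), AT1G29660, AT3G57020 (strictosidine synthase-like), AT2G05920 (a subtilisin-type protease) and AT3G51000.

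The 12 genes that were lower at 24 h included AT3G15450, annotated as aluminium-induced-like and linked to sugar starvation. It had -0.70 at 24 h, against 2.59, 2.97 and 3.41 before (-3.69 ± 0.86, limma adjusted p = 0.0106). The same sign change was seen in MCCA, an enzyme of leucine breakdown (-1.15 at 24 h, against 0.83, 1.29 and 0.94), and in DPE1, which acts on starch breakdown products in the chloroplast (-1.32, against 0.21, 1.23 and 0.58). AT5G61590 (DEWAX, a transcription factor that represses wax synthesis) had -0.74, against 1.09, 0.86 and 1.01. The remaining genes were AT2G30600, UGT85A2, AT1G79245, AT1G61180, AT5G62350, AT4G38550, AT5G14120 and AT1G78830.

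Of these 20 genes, AT3G21670 was the 1 whose course also passed the any-shape test against the other agents, and the smallest adjusted p of the other 19 in that test was 0.29. AT3G15450, for example, averaged 2.37, 2.28, 1.52 and -0.63 over the other agents, with the same low value at 24 h. The split of 8 and 12 moved with the zero point. It was 6 and 1 with deposited values, 45 and 1 with TUA5 centring, 8 and 15 with centring on the spots measured on all 27 arrays, and 3 and 0 after scaling to 1 spread or quantile normalization. Without the 5 h array it was 7 and 6.

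**Figure D3:**
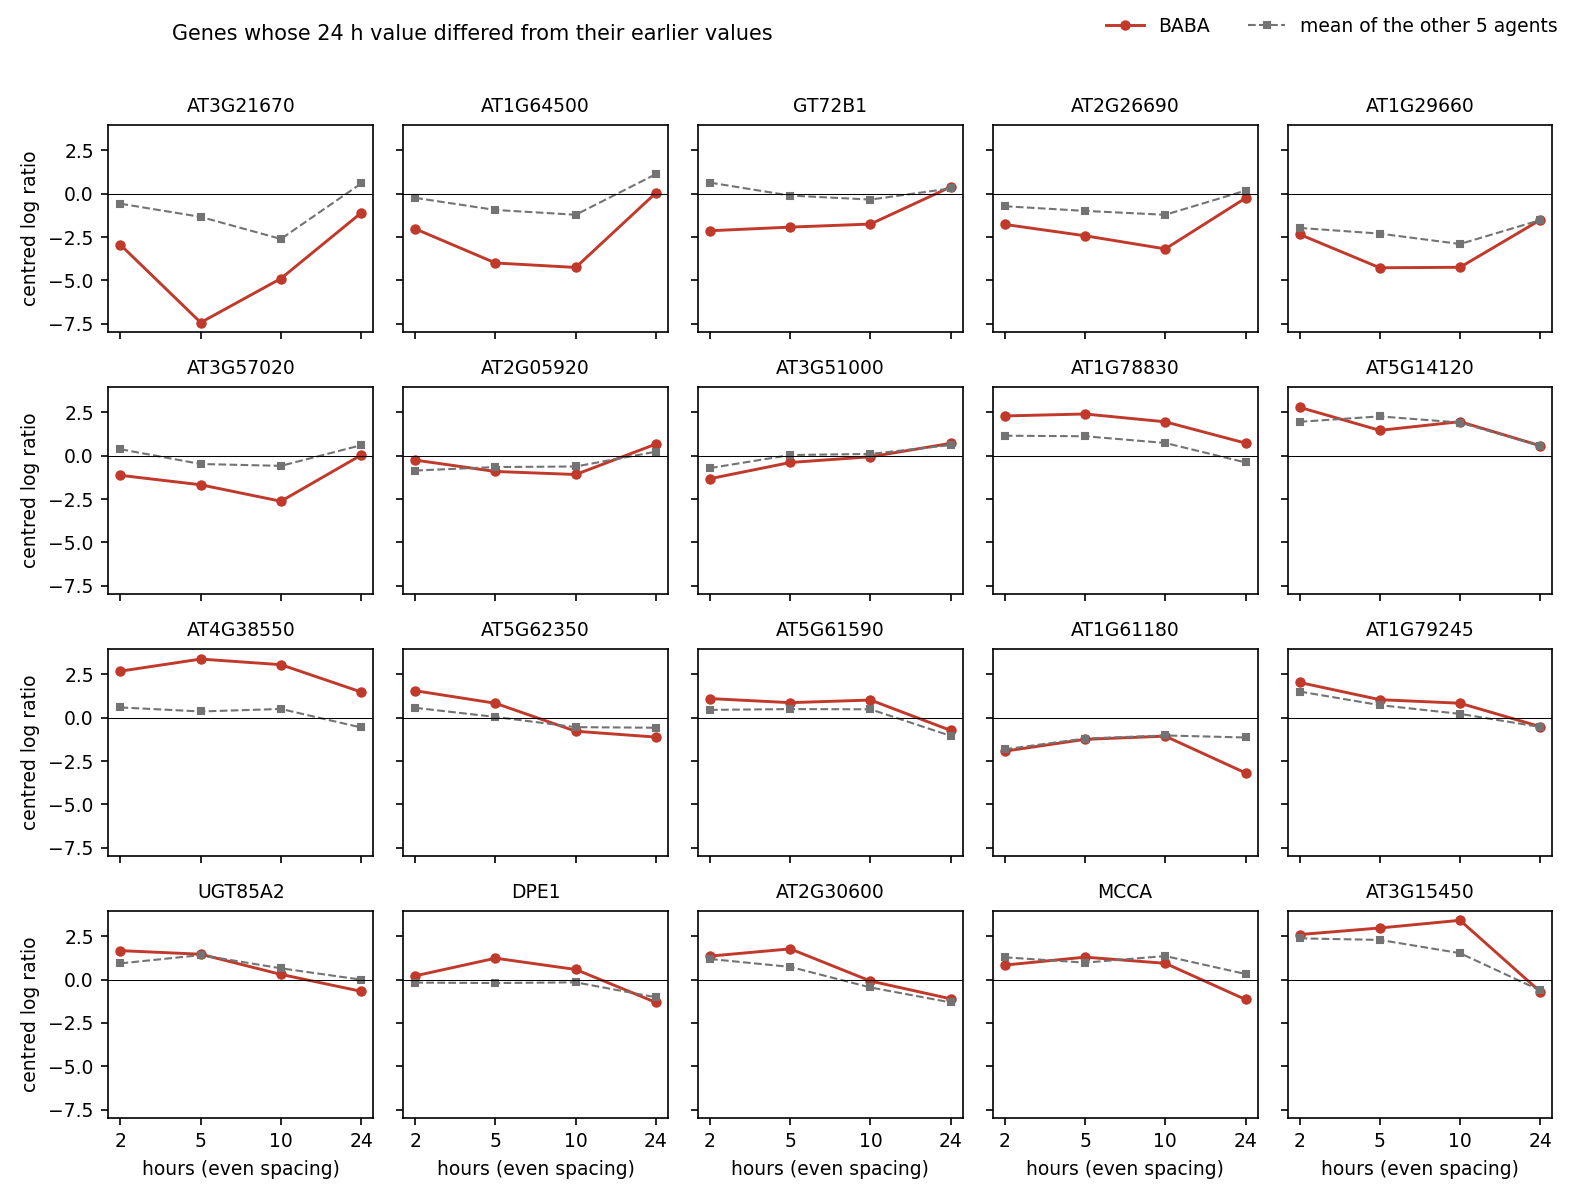
Centred log ratio (read as log2) by time for the 20 genes whose 24 h BABA value differed from the mean of 2, 5 and 10 h. Red circles are BABA (1 array a time) and grey squares the mean of the other 5 agents. In the 8 genes from AT3G21670 to AT3G51000 the last red point is higher than the mean of the earlier ones, and in the other 12 it is lower.

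The level over the whole course was compared with the other 5 agents in the additive model, in which a dye effect common to all arrays cancels. BABA differed from their mean for 83 of 180 genes (46.1%), 43 higher (23.9%) and 40 lower (22.2%). The split was 17 and 29 with deposited values, 8 and 100 with TUA5 centring, 25 and 25 after scaling to 1 spread, and 15 and 30 with quantile normalization. The genes below are the 8 highest and the 8 lowest.

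AT5G35735 was the gene furthest above the other agents. BABA gave 2.99, 4.04, 3.79 and 2.47, against a median of 0.29 and a range of -2.21 to 3.24 over the 18 conditions of the other agents with a value (2.99 ± 0.28, SE, limma adjusted p = 3.27e-08). For AT2G18690 all 4 BABA values, from 4.64 to 4.92, lay above all 19 other values, which ran from 0.94 to 3.84 (2.61 ± 0.28, limma adjusted p = 1.4e-07). It was the 1 gene of 159 (0.629%) with all 4 BABA values above every other condition measured. AT4G38550 was 2.43 ± 0.23 higher and AT2G39210 1.93 ± 0.28 higher, with ranges that overlapped.

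The other 4 of the highest genes had 3 BABA times each. AT5G17760, an AAA-type ATPase, had 2.77, 3.17 and 2.80 at 5, 10 and 24 h, against -0.47 to 1.83 in the other agents (2.58 ± 0.29, limma adjusted p = 8.35e-07). AT2G24600, an ankyrin repeat protein, had 2.73, 2.41 and 3.01 at 2, 5 and 10 h, against -0.05 to 1.78. Neither overlapped with the other agents at any measured time. AT1G26380, a berberine bridge enzyme-like oxidase of indole defence metabolism, had 3.97, 1.43 and 3.98 at 5, 10 and 24 h, against -0.12 to 1.97. Its 10 h value is 3.81 (3.805) without the spot at 0. AT3G62550, a universal stress protein-like gene, had 0.11, 1.62 and 1.15 at 2, 5 and 10 h, against a median of -1.54 and a range of -5.21 to 2.29 in the other agents. Some SA and INA values lay within or above the BABA range.

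Below the other agents, the largest difference was in AT1G66760, a MATE transporter (exporters of small molecules). It had -1.23, -3.10 and -3.44 at 2, 5 and 10 h after BABA, against -0.81 to 2.28 in the other agents (-3.36 ± 0.27, SE, limma adjusted p = 6.62e-09). No BABA value overlapped with theirs. AT3G21670 was lower by 3.24 ± 0.41 and AT3G28220 was lower by 2.31 ± 0.35. Without the spots at 0 the differences were -4.19 and -3.07. For AT3G28220 every MeJA value was above 0 and every other agent's below it, and without the MeJA arrays the difference was -1.30.

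AT1G66100 was lower by 2.39 ± 0.40 and AT1G64500 was lower by 2.24 ± 0.31 (limma adjusted p = 4.79e-05 and 7.22e-06). Both overlapped with the other agents, which ran from -3.46 to 2.08 for AT1G66100. For AT1G64500, SA had -1.38, -2.32, -2.89 and -0.92, and INA had -2.33, -1.74, -3.51 and -0.05. Both were nearest 0 at 24 h, as under BABA. The lowest AT1G64500 value under BTH, ET and MeJA was -0.76. AT4G36850, a PQ-loop transporter, had 1.01, -1.56, -1.28 and -0.98 after BABA, against a median of 1.47 in the other agents (-1.97 ± 0.36, limma adjusted p = 0.000139). AT3G29240 had -0.38, -0.63, 1.05 and 0.68, against a median of 1.79. AT1G52000 was lower by 1.55 ± 0.28, and the difference was -0.78 without the MeJA arrays, whose values alone were above 0 among the other agents. AT1G12930 was the 1 gene of 159 (0.629%) whose 4 BABA values, -0.79, -0.99, -0.87 and -1.80, all lay below every other condition (lowest -0.67).

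**Figure D4:**
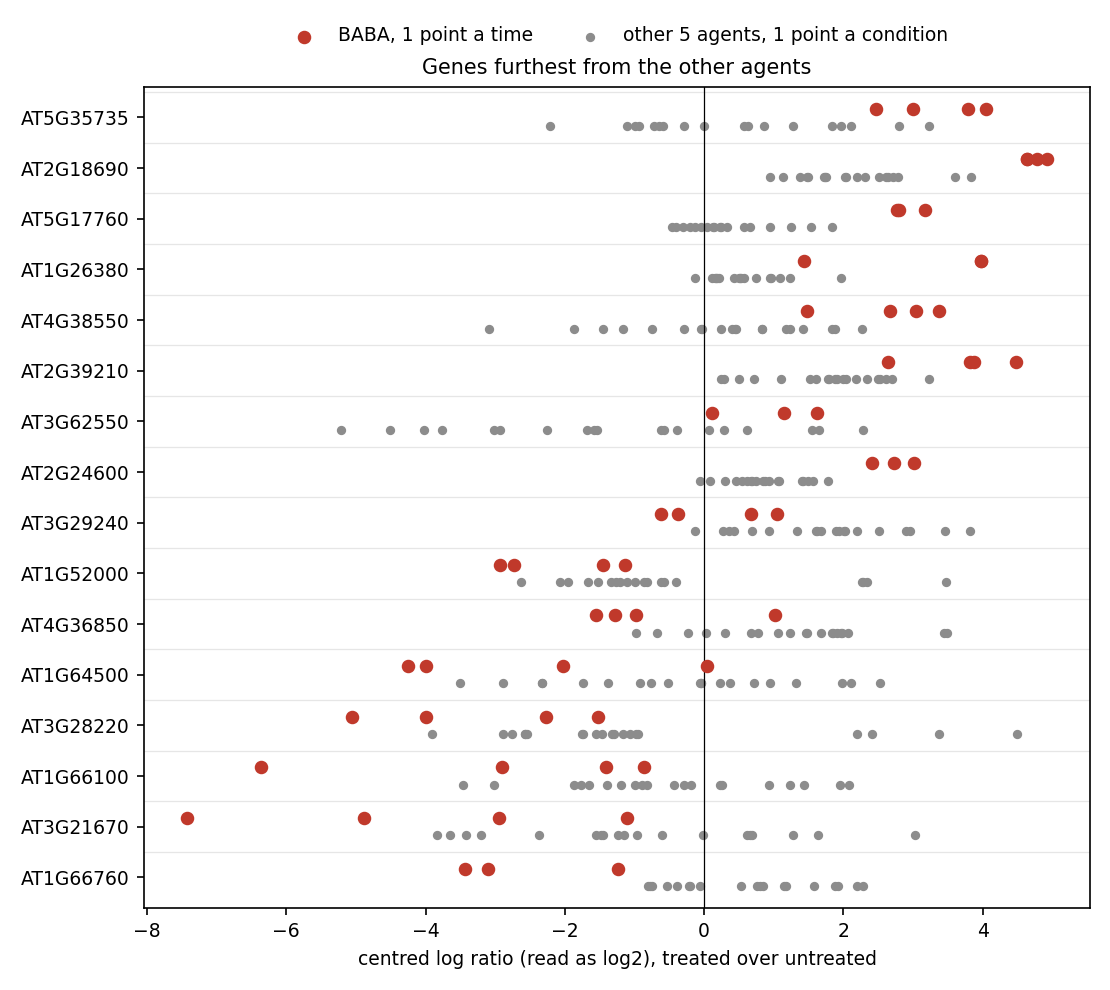
Centred log ratio (read as log2) of the 8 genes furthest above and the 8 furthest below the other agents. Red points are BABA, 1 a time, and grey points the conditions of the other 5 agents. AT2G18690, AT5G17760 and AT2G24600 lie to the right of all grey points, and AT1G66760 to the left of them. The point of AT1G26380 at 1.43 and the 10 h points of AT3G21670 and AT3G28220 average 1 spot deposited as 0.

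The named genes were also read by family, with counts from the test of the BABA mean against untreated plants, in which 33.9% of all tested genes were higher and 32.8% lower and the median was 0.01. Genes said to rise or fall here were higher or lower than untreated in that test, where dye and spraying effects do not cancel. Among oxidative enzymes, all 3 tested berberine bridge enzyme-like oxidases rose (AT1G26380, AT4G20830 and AT4G20840, median 2.96). The fourth, AT1G26390, had 5.32 at 24 h, and its 10 h spots were both deposited as 0. Of 4 tested class III peroxidases, which oxidise cell wall phenolics, 3 rose and 1 fell (median 1.07). AT4G37520 had 1.22, 1.52 and 1.58 at 5, 10 and 24 h, whereas AT1G44970 had -0.15, -1.03, -2.76 and -0.60. Only 8 of the 33 peroxidases on the array had any BABA value.

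Among calcium-binding proteins, 3 of 4 tested EF-hand genes rose and none fell (median 1.47). The medians of the measured members, not the same genes each time, were 2.23 at 2 h (7 genes) and 1.496 at 5 h (5 genes). They were 1.08 at 10 h (5 genes) and 1.16 at 24 h (4 genes). CML38, a calmodulin-like protein induced by wounding, was measured at 2 h alone, at 2.23. Their median against the other agents was 0.63, and turned to -0.05 with TUA5 centring.

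Immune receptors of the TIR and NB-ARC type, which recognise pathogen effectors, were mostly lower. Of 6 tested, 5 fell and none rose (median -1.31, 4 of 6 falling with deposited values or TUA5 centring). Against the mean of the other agents 2 of the 6, AT4G19500 and AT4G19510, were lower and 0 higher (median -0.44). The number lower was 5 with TUA5 centring and 0 after scaling to 1 spread. AT4G19500 had -1.47, -1.53 and -3.19 at 2, 5 and 24 h, AT4G19510 had -0.80, -0.75, -1.14 and -2.10, and AT3G44670 had -1.70, -0.52, -0.74 and -2.76. All 3 had their lowest value at 24 h, as did AT1G61180. Against them stood AT1G66090, which was not tested and had 3.59, 2.33 and 3.80 at 2, 5 and 10 h. Of 4 tested protein kinases none passed by limma at the adjusted threshold, with a median of 0.07, and 1 rose with TUA5 centring. BIK1, a kinase of immune signalling, was not tested and had 2.85, 1.33 and 0.75 at 2, 5 and 10 h.

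All 3 tested NRT1/PTR transporters fell (median -1.91), namely AT3G21670, AT2G26690 and GTR1, a glucosinolate transporter with -1.56, -1.35, -1.36 and -0.93. Of 4 tested sugar and other carriers, 2 rose (AT2G39210 and AT5G14120) and 1 fell (SFP1, a sugar-porter family protein, with -1.55, -1.77, -0.90 and -0.73). Of 3 tested MATE transporters, 1 fell (AT1G66760).

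Cold-linked genes fell, all 4 of the tested ones (median -1.11). Medians of the measured members were -0.06 (2 h), -1.12 (5 h), -2.66 (10 h) and -1.90 (24 h). KIN2 had 0.98, -1.40, -2.84 and -1.96, and TIL, a lipocalin, had -0.16, -0.43, -2.47 and -0.30. The 4 tested genes lay between -0.18 and 0.98 at 2 h and were lowest at 10 h or later. The other agents also had low values for them (means of KIN2 of 0.16, -1.44, -2.68 and -3.24). COR47 was less low under BABA than the mean of the other agents (1.14 ± 0.24, limma adjusted p = 0.000565). Its mean over the times was -0.925 under BABA, -3.38 under BTH, -2.72 under ET and -3.03 under MeJA. Under SA (-0.82) and INA (-0.37) it was no lower than under BABA. With TUA5 centring, 0 of the 4 genes passed as higher than the other agents and 2 as lower. These were 1 and 1 with deposited values, and 2 and 0 after scaling to 1 spread. With deposited values or after scaling to 1 spread, 2 of the 4 passed against untreated plants, and with TUA5 centring 3. KIN1 and COR15B, close homologs of KIN2 and COR15A, were measured at 2 h alone, at 0.05 and -2.11.

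Of 6 tested chloroplast genes 4 fell and none rose (median -0.67, with 1 of 6 falling with deposited values and 3 of 6 under the other centrings and scalings). Against the mean of the other agents 0 of the 6 were higher and 0 lower (median -0.09), and 5 were lower with TUA5 centring. PSAE-1, a photosystem I subunit, had 0.11, -0.79, -2.67 and -0.49, with its low point at 10 h alone. Both remorins fell (median -1.72). Against the other agents AT2G45820 was lower (-0.64, limma adjusted p = 0.013) and AT3G61260 did not pass (-0.06, limma adjusted p = 0.845). Of 5 tested cell wall genes 3 fell and 1, EXO, rose (1 of 5 falling with deposited values, TUA5 centring or scaling to 1 spread). Of 6 genes of ER bodies (stores of defensive beta-glucosidases), beta-glucosidases and lectins, 3 fell and 1 rose (1 falling with deposited values and 2 with TUA5 centring). PYK10, the main ER body enzyme of roots, had 0.09, -0.50, -1.31 and -0.88 and did not pass (limma adjusted p = 0.115).

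Of 5 tested transcription factors 4 rose and none fell (median 0.56). BZIP60, a regulator of the unfolded protein response, had 0.54, 1.11, 1.58 and 1.60. Both tested mannose-binding lectins rose, AT1G78830 with 2.29, 2.40, 1.95 and 0.72 and AT1G78850 with 1.92, 1.20, 0.08 and 0.18. Among 4 glycosyltransferases 2 rose and 1 fell, and among 4 genes of amino acid metabolism AlaAT1, an alanine aminotransferase, rose (1.56, 1.25, 0.56 and 0.86), with 2 of the 4 rising with deposited values and all 4 with TUA5 centring. Of 4 jasmonate-linked genes 2 rose, AT5G05600 (a jasmonate oxidase) and OPCL1, and AT1G66100 fell. FAMT, a farnesoic acid methyltransferase, was -1.50 ± 0.27 below the other agents.

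In the remaining lists 2 aspartyl proteases and carboxypeptidases rose and 2 fell of 4, and 1 gene rose and 1 fell among 5 of sugar and starch, 3 of carbonyl detoxification and 2 GDSL lipases. Of 2 tested cytochromes P450 and of 2 tested defence proteins, 1 fell and none rose. Untested defence proteins went both ways. CHI and PDF1.2, given below, and OSM34 (2.85 at 24 h alone) lay above 0. THI2.1 lay below it, with -0.43 at 2 h and -1.81 at 10 h. The falls among sugar and starch, carbonyl and P450 genes did not pass with deposited values or TUA5 centring, and the rises among carbonyl genes and GDSL lipases did not pass after scaling to 1 spread.

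**Figure D5:**
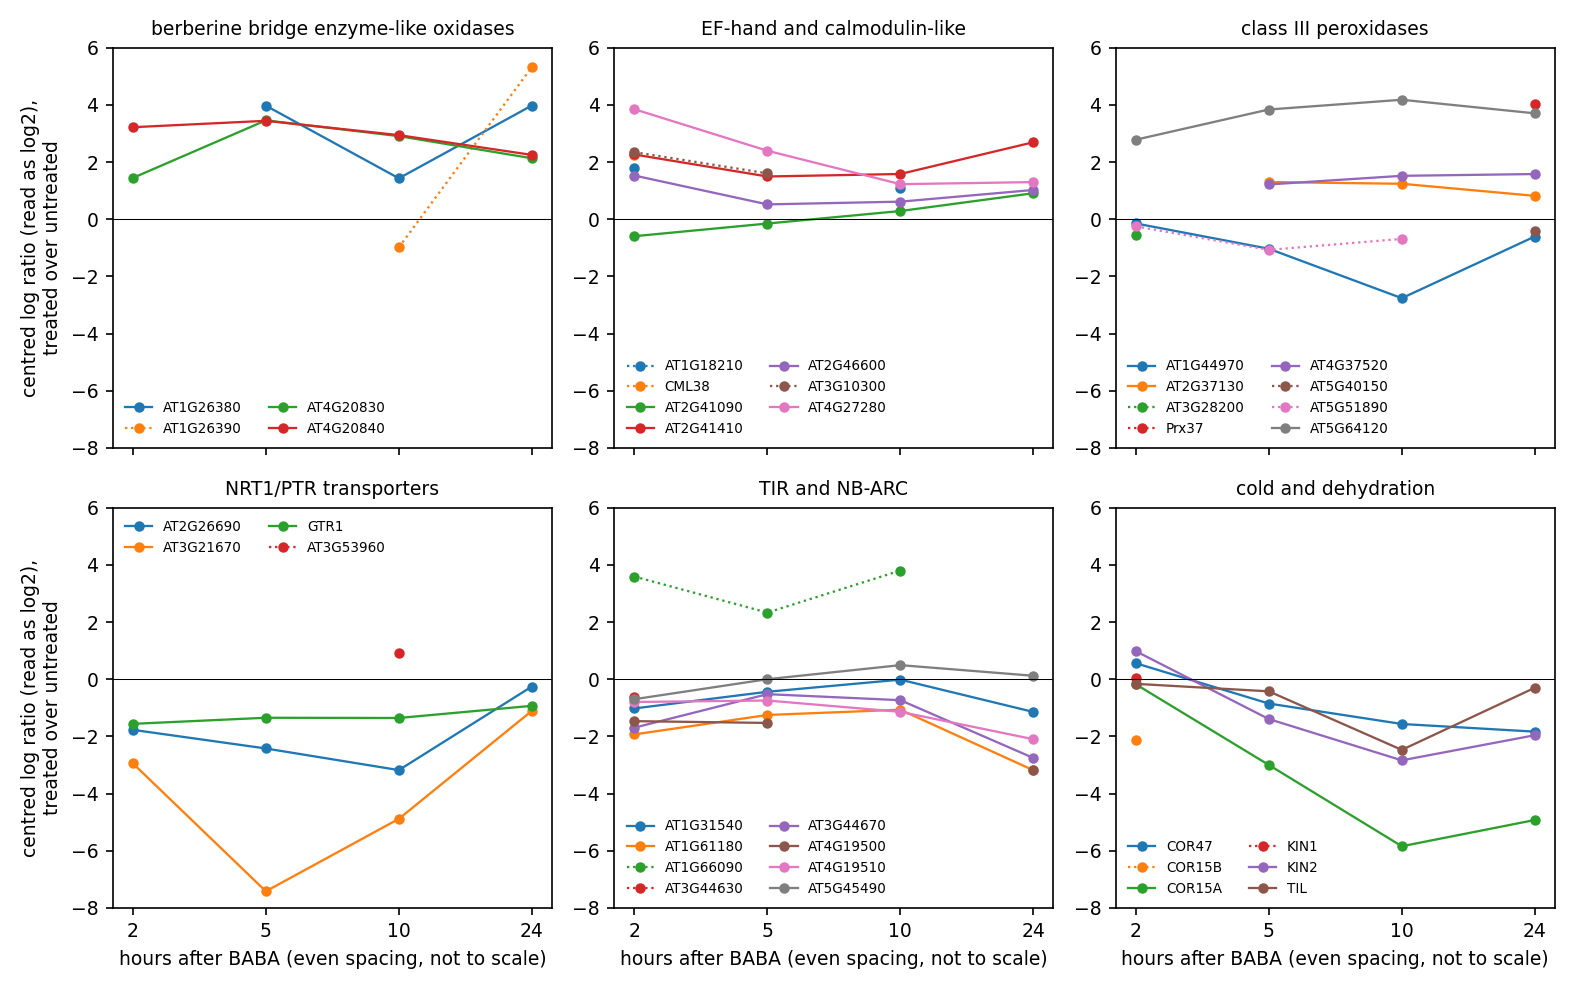
Centred log ratio (read as log2) at each time after BABA for every measured member of 6 gene families, 1 line a gene. Solid lines are genes with enough values to be tested, dotted lines and lone points those without, and a line is broken where a time has no value. Oxidases and calcium-binding proteins lie mostly above 0, and NRT1/PTR transporters and tested cold-linked genes mostly below it. AT1G26390 at 10 h rests on spots deposited as 0.

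Some genes had a value on some BABA arrays only. Of the 109 genes measured at 1 to 3 BABA times, 54 had a value of 1 or above and 17 a value of -1 or below. CHI, a chitinase, had 1.92, 3.37 and 4.57 at 5, 10 and 24 h and no value at 2 h. PDF1.2, a defensin and marker of jasmonate and ethylene signalling, had 2.60 at 10 h and 4.49 (4.485) at 24 h, against -0.13 to 3.45 in 10 conditions of the other agents. AT1G74360, a receptor kinase, had 2.97 at 5 h and 5.29 at 10 h, where its spots read 3.27 and 7.31. STZ, a zinc finger repressor of stress responses, had 2.06, 3.53 and 2.45 at 2, 5 and 10 h, and WRKY53, a senescence and defence regulator, 2.38 at 10 h. Why a spot has no value is not stated, so an absent value is not read as low expression.

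For 17 genes that had values in at least 18 of the 20 conditions of the other agents, no BABA array had a value. They include AT1G26800, AT5G02540, AT5G04120, AT5G19890 and CCR2 (a cinnamoyl-CoA reductase) with all 20, and ABR1 (a repressor of abscisic acid responses), AT1G12010, AT2G36780, AT4G36010 and AT5G37540 with 19. ABR1 ran from -0.01 to 3.64 in the other agents and AT2G36780, a glycosyltransferase, from -0.06 to 3.04.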

How the data were processed

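The deposited values are the authors' log ratios per spot, read as log2, from slides scanned on a ScanArray Lite, per the labels' protocols. Background correction, spot filters and normalization are not stated in the labels or headers. Spots (2560) were named through the platform annotation and RefSeq symbols (884 spots, 416 genes). The median of each array was subtracted, the spots of a gene averaged, and repeat arrays of the same RNA averaged. Tests used R 4.3.3 and limma 3.58.1, with a mean per agent and phase for late against early, and an additive model otherwise. P-values measure the spread over agents and times, which may be partly technical. Simulated data had the same SD of 0.51 on every array, BABA included, so a wider spread of the BABA arrays was not simulated. On simulated data with 180 genes, late minus early recovered 16, 6 and 1 of 20 genes changed by 2, 1 and 0.5. For BABA against the other agents these were 20, 18 and 4, and for 24 h against earlier times, in 159 genes, 11, 2 and 2. Named genes are those past the threshold with the largest differences, the 5 highest and lowest at each time, and list members. Genes named as held at all times, by slope, by the 24 h contrast or as partly measured were chosen after their values were seen. Lists follow the annotation's words. The members and lists were chosen with earlier results of these data known. Alternatives were other centrings, filters and arrays left out. Without intensities, signal over background is unknown. Coordinates and sequences are not used here.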

Additional observations from a re-analysis of the deposited data

Results flagged for a closer look

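The courses of 2 genes stood out because they differed from the common course of the other 5 agents by a test of the difference itself. AT1G66100, a thionin, had an adjusted p of 0.0246 and AT3G21670, a nitrate transporter family gene, an adjusted p of 0.000316 (limma variances, F test with 3 terms, 159 genes). The 10 h array, which has the widest spread, carries the largest gap of AT1G66100 (-6.36 against -1.62), where its 2 spots differed by a standard deviation of 0.29. Every other agent also had its lowest AT1G66100 value at 10 h, at -3.46 under ET and -3.02 under INA. The mean of -1.62 includes MeJA, whose values for this gene were all above 0 (1.23 to 2.08). AT3G21670 has gaps of similar size at 5 h (-7.42 against -1.34) and, without the 1 of its 2 spots deposited as 0, at 10 h (-8.83 against -2.61). With that spot the 10 h value is -4.89. With the values deposited as exactly 0 left out, the adjusted p-values were 0.0143 and 5.13e-06, and AT3G28220 passed as well (0.00743). With discordant spot pairs left out AT1G66100 had 0.0452 and AT3G21670 had too few values to be tested. With TUA5 centring the adjusted p-values were 0.248 and 0.0327, and AT1G66100 also missed the threshold with centring on the spots of all 27 arrays (0.0531) or of the 4 BABA arrays (0.0528). After scaling to 1 spread they were 0.992 and 0.962, and after quantile normalization 0.721 and 0.982. The part of the wider spread in both results was not tested.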

How the results depend on the processing

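The 4 BABA arrays carry replicate number 1 each, so the block for the replicate number touches only the repeat arrays of INA and BTH. With the replicate block on all 27 arrays, late minus early gave 2 calls, late minus early against the other agents 0, BABA minus the others 82 and the BABA mean 119. Late minus early gave 0 calls with deposited values, scaling to 1 spread, quantile normalization, the repeat arrays numbered 1 left out or the BABA arrays alone (39, 16, 18, 24 and 16 at an unadjusted p under 0.05), 2 with genes of 2 spots or without SA, 13 as a slope, 20 as 24 h against earlier times, and 0 to 5 with single BABA arrays left out (5 without 5 h, 0 without 2 or 10 h). Late minus early against the other agents gave 0 as a slope and 2 as a course of any shape. BABA minus the others gave 46 with deposited values, 50 scaled and 45 by quantiles, and 61 to 85 with single arrays left out. The BABA mean gave 107 to 119 with single arrays left out. The 24 h contrast gave 7 with deposited values, 46 with TUA5, 3 scaled or by quantiles, and 13 to 22 with single arrays left out (13 without 5 h). Under quantile normalization AT5G64120 lay -0.01 from the other agents (-0.0058, limma adjusted p = 0.987). Genes past 1 were 77 and 78 at 5 and 10 h when scaled, 75 and 76 by quantiles, 148 and 130 at 2 and 24 h with a size of 0.5, and 34, 42, 57 and 28 in time order with a size of 2. With genes of all 4 times they were 80 at 5 h. The largest value fell at 2, 5, 10 and 24 h for 23, 35, 39 and 26 of 123 genes. It fell at 2 and 5 h for 44 and 22 with deposited values, at 24 h for 50 with TUA5, at 2, 5 and 10 h for 40, 16 and 14 when scaled, and at 5 and 10 h for 18 and 15 by quantiles. Leaving out values deposited as 0 or discordant spot pairs, both chosen after seeing the data, moved no count of these tests by over 1.5 times, except the any-shape count, which was 1 without the discordant pairs. The causes were not tested. One array a time and few measured genes limit what can be seen here, and the promoter motif search was not run.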

Other observations

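Spots without a gene name also carried large values after BABA. Of unnamed spots with a value, 194 of 1008 lay at 1 or above and 142 at -1 or below at 2 h. At 5 h these were 320 and 225 of 1063, at 10 h 361 and 276 of 1075, and at 24 h 230 and 131 of 947. Both shares were larger at 5 and 10 h than at 2 h, as in the named genes. Among genes with 3 BABA times, CEF, chosen after its values were seen, lay above every other condition at 0.26, 0.12 and 0.34, against -1.15 to 0.00 in the other agents. AT1G09490 lay below every other condition at -1.20, -1.27 and -1.61, against -1.07 to 0.82. Of 21 such genes, 3 lay above (14.3%) and 2 below (9.52%) all other conditions.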
